A study of Mus musculus with 12 samples.

Results

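Kidneys of mice fed a high-fat diet (HFD) were compared with kidneys of mice fed a normal diet (ND) after the same hepatic ischemia-reperfusion injury (hIRI), across all genes rather than for selected pathways. The members of the comparison were the 3 HFD + hIRI and the 3 ND + hIRI libraries, 6 of the 12 kidney libraries of the study, and the 14091 genes of the deposited count table. All mice were male C57BL/6, entered the study at 10 weeks of age and ate for 12 weeks a diet with 29% fat (HFD, rich in sucrose as well) or 10% fat (ND). In hIRI a clamp on the vessels of a left lateral and a right median lobe of the liver was held for 60 min, so that the kidney itself was never clamped, and the kidneys were taken at 6 h. The other 6 libraries, ND + sham and HFD + sham with 3 each, came from mice that had the sham procedure. The question was how the diet, and the fatty liver that comes with it, changed the kidney's RNA once the liver had been injured.

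The kidney reclaims most of what its filter lets through. Cells of the proximal tubule carry a brush border of microvilli packed with transporters and peptidases, burn fatty acids for energy, make glucose and ammonia, and activate vitamin D. After an insult these cells lose part of that program, switch on injury and repair genes and an acute phase response, and can store lipid in droplets. In male mice many proximal tubule genes also depend on androgens.

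Levels are given as CPM, counts of a gene scaled by the size of its library (TMM), and differences as log2 fold changes of HFD + hIRI over ND + hIRI with the standard error (SE). A gene is called when its Benjamini-Hochberg adjusted p in the quasi-likelihood test of edgeR, taken across the whole table, is under 0.05. The gene lists were chosen with earlier results of these data known, and some genes are in more than 1 list. Their called shares beside those of all genes are therefore description and no test of enrichment. The 6 hIRI libraries had the markers of kidney, with Umod at 3877 to 5656 CPM, Slc34a1 at 2839 to 4640 CPM and Lrp2 at 1795 to 3461 CPM. Totals ran from 20874584 to 29451344 counts. The hIRI libraries were uneven. On the first principal component, which held 54.4% of the variance, ND + hIRI replicate 1 lay at -26.0, among the sham libraries at -37.9 to -18.5, while replicates 2 and 3 lay at 15.7 and 22.5. HFD + hIRI replicates 1, 2 and 3 lay at 97.4, 44.9 and 19.4, so that replicate 3 stood between ND + hIRI replicates 2 and 3. The mean log2 level of 34 tubular injury and repair genes relative to ND + sham followed the same order, 3.43, 2.18 and 1.36 in HFD + hIRI replicates 1, 2 and 3 against 0.0338, 1.08 and 1.70 in the ND + hIRI replicates. The numbers in the library names were split here at their widest gap, between 408 and 415, into a lower and a higher run. No label names such runs, and the labels give all libraries 1 batch tag. All 3 HFD + hIRI libraries and ND + hIRI replicates 2 and 3 fall in the higher run, and ND + hIRI replicate 1 falls in the lower run.

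In total 190 of 14091 genes were called (1.35%), of which 75 were higher (0.532%) and 115 lower (0.816%) in HFD + hIRI. A fold of at least 2 was reached by 31 of the higher and 61 of the lower genes. At an unadjusted p under 0.05, 27.2% of genes passed, 2105 higher and 1723 lower. All 190 called genes had no overlap between the 3 libraries of each group, which 12.2% of all genes showed toward higher and 11.5% toward lower levels in HFD + hIRI. The volcano plot shows the called genes on both sides, with Vdr and Fgb apart from the rest. Calls near the threshold depended on single libraries. Leaving out ND + sham replicates 1, 2 and 3 in turn gave 16, 75 and 81 calls, HFD + sham replicates 1, 2 and 3 gave 18, 10 and 9, ND + hIRI replicates 1, 2 and 3 gave 53, 4 and 117, and HFD + hIRI replicates 1, 2 and 3 gave 84, 20 and 2559. The 4 genes called in all 12 of these fits were Vdr, Fgb, Hyi and Acly, and 60 of the 190 were called in no more than 1. With only the 6 hIRI libraries in the model 0 genes passed by the quasi-likelihood test, with 1924 at an unadjusted p under 0.05, while DESeq2 on all 12 libraries called 1778, 937 higher and 841 lower. Counts of list members at an unadjusted p, by DESeq2 or without 1 library have to be read beside these totals. None of the 190 changed direction in any of the 29 alternatives. As all 190 were without overlap between the hIRI groups, leaving out a library could hardly have reversed one, so this says little about their stability. With scaling by library totals alone the median log2 fold change of all genes was -0.114, against 0.0045 with TMM. That scaling gave 34 higher and 152 lower genes.

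**Figure D1:**
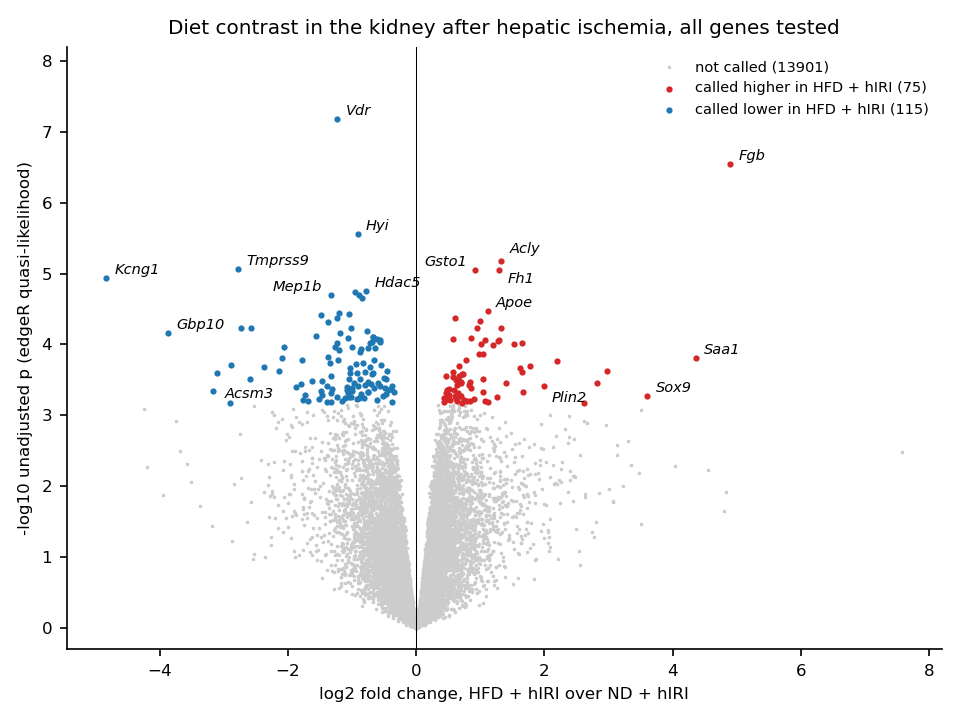
Log2 fold change of HFD + hIRI over ND + hIRI (x axis) against the -log10 of the unadjusted p (y axis) for each of 14091 genes, with the 75 genes called higher in red, the 115 called lower in blue and the rest in gray. Vdr, at -1.23, and Fgb, at 4.90, have the smallest p-values.

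The gene with the smallest p was Vdr, the nuclear receptor for active vitamin D, on chromosome 15 from 97854427 to 97908296. It measured 389.2, 367.8 and 410.4 CPM in the 3 ND + hIRI kidneys and 179.2, 157.2 and 162.1 CPM in the 3 HFD + hIRI kidneys. The groups were far apart and each was tight, with means of 389.1 ± 21.3 CPM and 166.2 ± 11.5 CPM (SD, n = 3). The log2 fold change was -1.23 (SE 0.10, adjusted p = 0.000935 by edgeR's quasi-likelihood test), and it stayed between -1.29 and -1.19 in the fits without 1 library. In sham kidneys Vdr measured 312.2 ± 32.7 CPM on the ND and 283.6 ± 13.2 CPM on the HFD, a log2 fold change of -0.14 (SE 0.10, adjusted p = 0.731). Compared with sham, then, the mean level in hIRI kidneys was higher on the ND and lower on the HFD. The difference between the diet contrasts after hIRI and in sham kidneys was -1.09 (SE 0.14), at an adjusted interaction p of 0.0461. Among 22 genes of vitamin D, klotho and calcium handling Vdr was the 1 that passed, with 10 of 22 at a positive log2 fold change and a list median of -0.16 against 0.0045 over all genes.

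Fgb, the beta chain of fibrinogen, which the liver supplies to plasma for clotting and which injured tubules are known to make, had the largest rise among the called genes. On chromosome 3 from 83042305 to 83049790, it measured 6.30, 9.69 and 13.2 CPM in the ND + hIRI kidneys and 470.3, 266.2 and 132.5 CPM in the HFD + hIRI kidneys. The lowest HFD + hIRI kidney was still far above the highest ND + hIRI kidney, although the HFD + hIRI libraries spread in the order of their injury gene levels. The log2 fold change of 4.90 (SE 0.45, adjusted p = 0.00201) had no counterpart in sham kidneys, which measured 2.84 ± 0.578 CPM on the ND and 2.83 ± 0.339 CPM on the HFD. The interaction was 4.90 (SE 0.61, adjusted p = 0.0461). The interaction calls of Vdr and Fgb were the only ones, 2 of 14091 (0.0142%), and both ended with limma voom, with the library number run as a covariate and with the gene length trend removed. They held without HFD + hIRI replicate 1, only that of Fgb held without HFD + hIRI replicate 3, and both ended without any one of the other 10 libraries.

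The promoter of Fgb is printed because the gene rose furthest, and that of Saa1 because it is the called acute phase gene with the lowest level in sham kidneys. Both are 300 bases from RefSeq on GRCm38.p6, 250 before and 50 after the annotated start, read on the minus strand from chr3:83049814-83050113 (Fgb) and chr7:46742931-46743230 (Saa1). Capitals mark a STAT motif, TTCNNNGAA, and a C/EBP motif, TTGCNNAA, both searched on both strands, STAT in Fgb only.
Fgb: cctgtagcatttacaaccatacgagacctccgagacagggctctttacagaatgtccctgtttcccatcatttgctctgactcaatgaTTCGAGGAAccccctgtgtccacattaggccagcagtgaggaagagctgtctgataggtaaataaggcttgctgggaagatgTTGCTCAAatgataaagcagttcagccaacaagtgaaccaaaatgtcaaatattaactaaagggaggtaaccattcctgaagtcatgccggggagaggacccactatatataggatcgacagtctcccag
Saa1: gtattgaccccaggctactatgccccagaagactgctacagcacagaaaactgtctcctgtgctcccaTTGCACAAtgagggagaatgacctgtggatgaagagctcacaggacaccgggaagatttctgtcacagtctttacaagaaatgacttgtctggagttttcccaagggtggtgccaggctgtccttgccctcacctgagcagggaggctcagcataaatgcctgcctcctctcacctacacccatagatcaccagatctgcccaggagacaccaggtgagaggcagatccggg
STAT3 and C/EBP beta are the factors that drive acute phase genes in hepatocytes. In the Fgb promoter the STAT letters begin 162 bases and the C/EBP letters 80 bases before the start, and in that of Saa1 the C/EBP letters begin 182 bases before it. Of the 22 acute phase genes with a promoter in the table, 10 held the C/EBP letters (45.5%) and 6 the STAT letters (27.3%), against 8.52% and 7.10% of all 10715 promoters matched. Among the called genes, of which 153 of 190 had a promoter, the C/EBP letters were in 10 of 61 higher genes (16.4%) and 12 of 92 lower genes (13%). These are matches of letters and no measure of binding.

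Of 29 acute phase genes 4 were called, all higher (13.8% against 0.532% of all genes), and 25 were positive, with a median of 0.87. Saa1, a serum amyloid A protein whose reads may be shared with Saa2, measured 2.46, 4.77 and 5.57 CPM in ND + hIRI and 173, 65.3 and 24.3 CPM in HFD + hIRI kidneys. Lrg1, a secreted glycoprotein of inflammation, measured 11.9, 34.9 and 35.2 CPM against 400.1, 169.9 and 73.4 CPM. For both genes the HFD + hIRI level was highest in replicate 1 and lowest in replicate 3, as with the injury genes. Cp, ceruloplasmin, which oxidizes iron for loading onto transferrin, behaved otherwise, with 124.9, 146.2 and 157.5 CPM against 279.7, 229.4 and 263.5 CPM. The log2 fold change of Cp was 0.85 (SE 0.14, adjusted p = 0.0300) after hIRI and 0.89 (SE 0.14) in sham kidneys. The calls held in 2 (Saa1), 1 (Lrg1) and 5 (Cp) of the 12 fits without 1 library. The liver makes these proteins as well. Of 14 hepatocyte marker genes tested 0 were called. Before adjustment 3 were higher and 3 lower (p under 0.05, passed by 27.2% of all genes). DESeq2 called 1 higher and 1 lower, beside 1778 of all genes. The 14 markers summed to 174.8 to 340.3 CPM in ND + hIRI against 444.9 to 495.8 CPM in HFD + hIRI kidneys, with Ttr, the carrier of thyroid hormone, the most abundant at 66.0 to 262.2 CPM. Their part in the acute phase result was not tested. In tubular injury and repair, 3 of 34 genes were called, all higher (8.82%), and 31 of 34 were positive with a median of 1.11, which was 0.56 without HFD + hIRI replicate 1 and 0.27 without the first replicate of both groups. Without ND + hIRI replicate 1 or 2 no injury gene was called, and without HFD + hIRI replicate 3 the number was 20. Wfdc2, a secreted protease inhibitor of epithelia, measured 59.1, 61.2 and 67.1 CPM against 154.3, 104.1 and 117 CPM (log2 fold change 1.00, SE 0.16, adjusted p = 0.0300). Tubb2a, a beta tubulin, went from 36.7, 57.1 and 62.7 CPM to 411.2, 190.7 and 118.9 CPM. Sox9, a transcription factor of tubule repair, measured 2.06, 2.90 and 14.9 CPM in ND + hIRI, where replicate 3 stood apart, and 152.3, 55.9 and 32.1 CPM in HFD + hIRI kidneys, at an adjusted p of 0.0483. Of 24 AP-1 and immediate early genes 0 were called by the quasi-likelihood test, while 16 were higher and 0 lower before adjustment (p under 0.05), 9 called by DESeq2 and 15 called by the quasi-likelihood test without HFD + hIRI replicate 3. Myc, the member with the smallest p, measured 7.41, 10.5 and 14.4 CPM against 74.0, 29.4 and 12.7 CPM, with an overlap, at a log2 fold change of 1.85 that was 0.97 without HFD + hIRI replicate 1 (adjusted p = 0.0822 with all libraries).

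Brush border peptidases and transporters were among the lower genes in HFD + hIRI kidneys. Of 37 proximal tubule brush border genes 5 were called, all lower (13.5% against 0.816% of all genes), and 25 of 37 were negative with a median of -0.21, which was -0.12 without HFD + hIRI replicate 1. The list was not uniform, with 4 higher and 10 lower before adjustment (p under 0.05) and 3 higher and 7 lower by DESeq2. Over all genes these counts were 2105 higher and 1723 lower before adjustment, and 937 higher and 841 lower by DESeq2. Mep1b, the beta subunit of the protease meprin (chromosome 18), measured 165.5, 156.5 and 145.2 CPM in ND + hIRI and 39.6, 75.2 and 70.6 CPM in HFD + hIRI kidneys (log2 fold change -1.33, SE 0.19, adjusted p = 0.0236). Tmigd1, an adhesion protein of the microvilli, measured 253.6, 333.1 and 293.6 CPM against 148.4, 173.2 and 169.4 CPM (-0.84, SE 0.12, adjusted p = 0.0239). Ace, which converts angiotensin I on the brush border, measured 221, 337.9 and 243.4 CPM against 109.3, 142.7 and 88.2 CPM. Aqp1, the water channel of the proximal tubule, measured 1024, 796.5 and 911.4 CPM against 565.9, 511 and 632.2 CPM. Slc6a19, the neutral amino acid transporter, was the fifth of these genes, at -0.76 (adjusted p = 0.0463), and is named after its values were seen. Among the HFD + hIRI libraries Mep1b and Tmigd1 were lowest in replicate 1, Aqp1 in replicate 2 and Ace in replicate 3. The diet contrast in sham kidneys had the same sign for all 4 genes whose values are given, at -0.82 for Mep1b, -1.0 for Tmigd1, -0.79 for Ace and -0.26 for Aqp1. Their calls after hIRI held in 9 (Mep1b), 8 (Tmigd1), 6 (Ace) and 5 (Aqp1) of the 12 fits without 1 library, and without ND + hIRI replicate 2 none of the 37 genes was called. The list's mean relative to ND + sham was -0.617 in HFD + hIRI replicate 1, -0.322 in replicate 2 and -0.280 in replicate 3, and between -0.178 and -0.127 in ND + hIRI. In whole kidney RNA, fewer cells of a type and less RNA per cell cannot be told apart.

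Further along the nephron the called genes were few and lower. Kcnj1, the potassium channel ROMK of the thick ascending limb, measured 217.4, 196.1 and 209.7 CPM in ND + hIRI and 91.9, 79.8 and 148.4 CPM in HFD + hIRI kidneys. It was the 1 gene called among 22 of the thick ascending limb and distal tubule (4.55% against 0.816% of all genes). Of the 22 genes 8 were positive, and DESeq2 called 1 higher and 2 lower, beside 1778 of all genes. The list summed to 10640 to 13080 CPM in ND + hIRI and 12610 to 14250 CPM in HFD + hIRI kidneys. Prss8, the serine protease prostasin, which activates the epithelial sodium channel, measured 315.2, 326.1 and 289.5 CPM against 115.9, 180 and 210.6 CPM, and it was the 1 called among 20 collecting duct genes (5%). These calls held in 1 and 2 of the 12 fits. All 9 water channel genes had a negative log2 fold change, with a median of -0.57, and Aqp1 was the 1 that was called (11.1%). In the renin-angiotensin list of 20 genes, Ace and Mas1 were called, both lower (10% against 0.816% of all genes). The list as a whole was not lower, with 11 of 20 positive and a median of 0.08. Before adjustment 3 were higher and 3 lower (p under 0.05, passed by 27.2% of all genes). DESeq2 called 2 higher and 3 lower, beside 1778 of all genes. Mas1, the receptor for an angiotensin peptide that opposes angiotensin II, had only 12, 24 and 18 counts in ND + hIRI and 2, 1 and 3 counts in HFD + hIRI kidneys, so no fold is given. The list of 10 podocyte genes had 0 called by the quasi-likelihood test or by DESeq2 and 0 at an unadjusted p under 0.05.

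**Figure D2:**
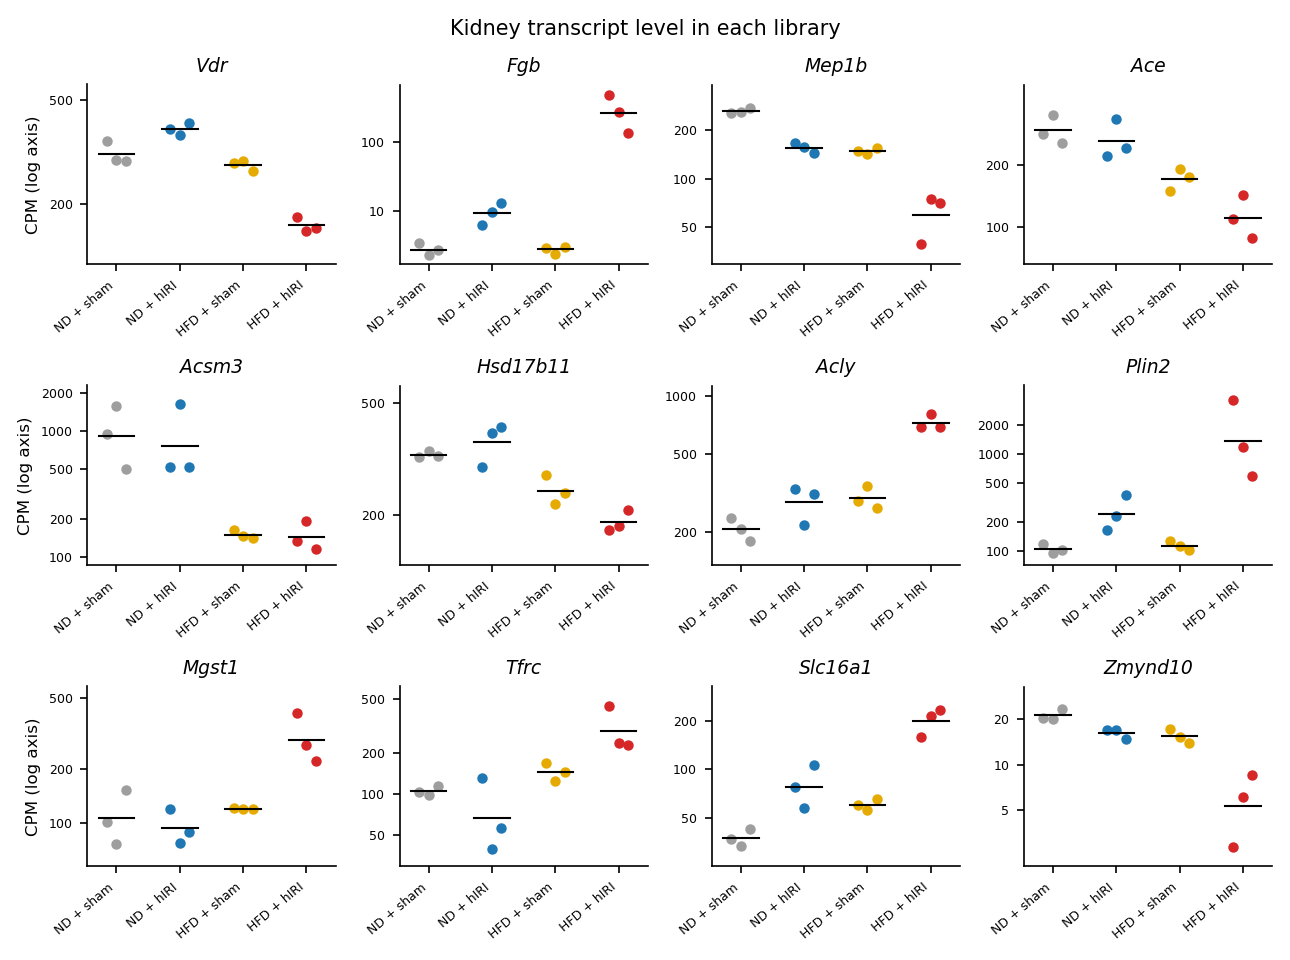
CPM (log axis) of 12 named genes in each library of the 4 groups, with 1 point per kidney and a bar at the geometric mean. Vdr, Mep1b, Ace, Hsd17b11 and Zmynd10 are lowest and Fgb, Acly, Plin2, Mgst1, Tfrc and Slc16a1 highest in HFD + hIRI, while Acsm3 is low in both HFD groups.

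The list of androgen-dependent and sex-dimorphic kidney genes had 9 of 32 members called (28.1% against 1.35% of all genes). That number was 0 without ND + hIRI replicate 2 and 1 without HFD + hIRI replicate 2. Of the 9 called members 6 were lower and 3 higher, and the median over the list was -0.69, with 7 of 32 positive. In sham kidneys that median was -0.43. Hsd17b11, a 17-beta-hydroxysteroid dehydrogenase found on lipid droplets, measured 295.6, 389.1 and 410.9 CPM in ND + hIRI and 177.4, 182.4 and 209.1 CPM in HFD + hIRI kidneys (log2 fold change -0.95, SE 0.13, adjusted p = 0.0236). Akr1d1, the steroid 5-beta-reductase, measured 33.8, 38.6 and 38.1 CPM against 16.9, 19.3 and 23.4 CPM (-0.89, SE 0.13, adjusted p = 0.0236). The 5-alpha-reductases, which turn testosterone into dihydrotestosterone, were lower as well. Srd5a2 measured 3.45, 5.76 and 3.75 CPM against 1.14, 1.53 and 1.71 CPM, and Srd5a1 measured 16.8, 20.3 and 11.9 CPM against 6.97, 8.15 and 8.81 CPM. Acsm3, a medium-chain acyl-CoA synthetase with male-biased expression in mouse kidney in the same list, measured 518.1, 1629 and 514.6 CPM in ND + hIRI, where replicate 2 stood apart, and 133.2, 191.6 and 114.9 CPM in HFD + hIRI kidneys, a log2 fold change of -2.60 (SE 0.50, adjusted p = 0.0433). In sham kidneys the fold change of Acsm3 was as large, -2.73 (SE 0.50). Slc22a28, of the organic anion transporter family, was also lower, at -1.01 (adjusted p = 0.0463). The calls held in 9 (Hsd17b11), 8 (Akr1d1), 5 (Srd5a2), 4 (Acsm3), 3 (Srd5a1) and 2 (Slc22a28) of the 12 fits. The 3 higher members, Gsta2, Mgst1 and Abcc3, also belong to the glutathione list below.

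Lipid genes differed in several steps. Acly, which makes cytosolic acetyl-CoA from citrate for fatty acid synthesis, measured 334.2, 219.2 and 315.7 CPM in ND + hIRI and 694.5, 804.2 and 688.1 CPM in HFD + hIRI kidneys (log2 fold change 1.33, SE 0.17, adjusted p = 0.0182). Elovl2, an elongase of polyunsaturated fatty acids, measured 23.0, 23.0 and 29.6 CPM against 64.7, 41.2 and 53.2 CPM (1.07, SE 0.18, adjusted p = 0.0300). Acsl4, which activates arachidonic acid, measured 109.4, 152.6 and 172.6 CPM against 568.9, 341.5 and 233.5 CPM. All HFD + hIRI libraries were above all ND + hIRI libraries for these enzymes, with Acsl4 highest in replicate 1. Of 24 genes for fatty acid synthesis and elongation 4 were called (16.7% against 1.35% of all genes). Degs2, a sphingolipid desaturase and hydroxylase, was the lower gene among these 4, at 44.8, 58.8 and 27.1 CPM against 15.5, 17.9 and 17.2 CPM. Plin2, the main coat protein of lipid droplets, differed widely between the HFD + hIRI libraries. It measured 163.6, 227.4 and 376.5 CPM in ND + hIRI and 3660, 1185 and 589.9 CPM in HFD + hIRI kidneys. Its log2 fold change of 2.82 (SE 0.55, adjusted p = 0.0447) was 1.79 without HFD + hIRI replicate 1, and the call held in 1 of the 12 fits. Apob, the core protein of lipoproteins that the kidney also secretes, was steadier, with 829.2, 477.4 and 728.6 CPM against 1293, 1429 and 1295 CPM. Apoe, a lipid carrier made by macrophages and other cells, measured 210.7, 145.8 and 189.9 CPM against 401.3, 364.8 and 416.2 CPM, a log2 fold change of 1.11 (SE 0.17) after hIRI and of 1.16 in sham kidneys. Plin2, Apob and Apoe were the 3 called of 30 lipid droplet and lipolysis genes (10% against 0.532% of all genes). Of 12 adipocyte markers 9 were positive and 0 called, with a median of 0.65 that was 1.41 without both first hIRI replicates. These markers summed to 265.1 to 336.0 CPM in ND + hIRI and 270.5 to 411.1 CPM in HFD + hIRI, and the part of adipocytes in the lipid genes was not tested. Of 40 genes of fatty acid oxidation and ketogenesis 30 were positive, with a median of 0.16 that was 0.47 without ND + hIRI replicate 1 and 0.04, with 21 positive, under scaling by library totals alone. Before adjustment 12 were higher and 4 lower (p under 0.05). DESeq2 called 7 higher and 1 lower, and with the library number run as a covariate 9 were called higher and 0 lower. The 1 gene called by the quasi-likelihood test (2.5% against 1.35% of all genes) was lower, Bdh1, the mitochondrial enzyme that interconverts ketone bodies, at 124.8, 193.6 and 131.5 CPM against 69.3, 79.7 and 69.9 CPM. The quasi-likelihood test called 0 of 24 cholesterol synthesis genes. Before adjustment 4 were higher and 9 lower (p under 0.05, passed by 27.2% of all genes). DESeq2 called 2 higher and 6 lower, beside 1778 of all genes, and the median was -0.38. Mvd, a mevalonate pathway enzyme with the smallest p of that list, measured 34.2, 37.6 and 23.4 CPM against 6.404, 14.1 and 19.1 CPM (adjusted p = 0.0680). Across the called lipid genes, Acly held in all 12 fits without 1 library, Apoe in 8, Elovl2 in 6, Apob in 5, Degs2 in 4, Bdh1 in 3 and Acsl4 in 1.

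NRF2 is a factor that turns on genes against oxidants, and glutathione transferases conjugate drugs and lipid peroxides. Of 38 such genes 6 were called, all higher (15.8% against 0.532% of all genes), and 32 were positive with a median of 0.42. Gsto1, an omega glutathione transferase, measured 35.6, 33.7 and 34.3 CPM in ND + hIRI and 66.0, 67.7 and 62.0 CPM in HFD + hIRI kidneys (log2 fold change 0.92, SE 0.12, adjusted p = 0.0182). It was the tightest of the group, held in 11 of the 12 fits, and had a like fold change of 0.82 in sham kidneys. Gsta2, an alpha glutathione transferase whose reads may be shared with its near copies, measured 214.2, 182.8 and 177.5 CPM against 647.6, 367.9 and 379.1 CPM. Mgst1, the microsomal transferase that also reduces lipid peroxides, measured 120.7, 78.0 and 89.3 CPM against 413.3, 272.5 and 221.9 CPM (1.66, SE 0.28, adjusted p = 0.0300), while the HFD contrast in sham kidneys was 0.12. Abcc3, an efflux pump for conjugates, measured 3.37, 5.76 and 5.19 CPM against 11.2, 10.0 and 11.7 CPM. Cbr3, a carbonyl reductase, measured 3.96, 1.497 and 2.64 CPM against 30.8, 14.3 and 5.12 CPM, at an adjusted p just under the threshold that held in 1 of the 12 fits. The sixth was Gsr, glutathione reductase, at 0.71 (adjusted p = 0.0412), named after its values were seen. The mean of the list relative to ND + sham was 1.19, 0.648 and 0.280 in HFD + hIRI replicates 1, 2 and 3 and 0.103 to 0.163 in ND + hIRI, and without HFD + hIRI replicate 1 the median was 0.22 with 3 genes called. Without ND + hIRI replicate 2 no gene of the list was called. The promoter of Mgst1 is shown because its NRF2 letters lie close to the start, 56 bases before it. It is 300 bases from RefSeq on GRCm38.p6, chr6:138140277-138140576 on the plus strand, with the reverse complement of TGACNNNGC in capitals.
Mgst1: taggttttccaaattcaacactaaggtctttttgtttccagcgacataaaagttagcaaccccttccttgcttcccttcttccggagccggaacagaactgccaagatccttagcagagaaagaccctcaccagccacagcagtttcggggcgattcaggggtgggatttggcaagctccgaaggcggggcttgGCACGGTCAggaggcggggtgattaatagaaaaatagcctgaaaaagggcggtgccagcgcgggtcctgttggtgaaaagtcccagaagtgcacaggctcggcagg
The letters TGACNNNGC were in 10 of 32 promoters of the list (31.2%) and in 14.9% of all promoters matched, and of the called genes in 8 of 61 higher (13.1%) and 7 of 92 lower ones (7.61%).

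Amino acid and nitrogen metabolism was split. Of 37 genes of amino acid catabolism and arginine, 26 were negative, with 3 called lower and 2 called higher (13.5% against 1.35% of all genes). Bcat2, which starts the breakdown of branched-chain amino acids, measured 50.4, 46.4 and 40.1 CPM in ND + hIRI and 30.4, 27.4 and 29.5 CPM in HFD + hIRI kidneys. Acy1, which frees amino acids from their N-acetyl forms, measured 117.7, 138.8 and 114.8 CPM against 47.2, 76.3 and 71.4 CPM. Cbs, which channels homocysteine into cysteine synthesis, measured 140.6, 192.1 and 191.1 CPM against 106.2, 103.2 and 92.5 CPM. Their log2 fold changes were -0.65, -0.93 and -0.79 (adjusted p = 0.0364, 0.0381 and 0.0412 by the quasi-likelihood test). Higher were Arg2, the mitochondrial arginase, at 16.5, 27.2 and 27.9 CPM against 126.5, 72.5 and 46.9 CPM, and Maob, a monoamine oxidase, at 11.7, 6.41 and 6.15 CPM against 20.7, 20.0 and 19.0 CPM. Maob was level among the HFD + hIRI libraries, whereas Arg2 was highest in replicate 1 and lowest in replicate 3. Of 18 genes of gluconeogenesis and ammoniagenesis, 2 were called, both higher (11.1% against 0.532% of all genes), and both are membrane carriers. Slc16a1, the lactate and pyruvate carrier MCT1, measured 77.8, 57.2 and 106.9 CPM against 158.7, 213.2 and 234.2 CPM (1.33, SE 0.21, adjusted p = 0.0300). Slc38a3, the glutamine carrier SNAT3 that feeds ammonia production, measured 160.1, 97.1 and 95.7 CPM against 462.5, 431.3 and 213.8 CPM (1.65, SE 0.31, adjusted p = 0.0412). These were also the 2 called higher of 266 solute carriers outside the mitochondrial SLC25 family, of which 6 were lower. That is 3.01% of the family against 1.35% of all genes, and the share called higher was near the 0.532% of all genes. Among the lower ones, Slc28a1, the nucleoside carrier CNT1, measured 15.5, 15.9 and 14.7 CPM against 8.93, 6.54 and 7.24 CPM. It moves pyrimidine nucleosides across the brush border. Slc35f3 measured 24.1, 20.3 and 24.8 CPM against 14.0, 8.80 and 11.8 CPM, and Slc16a7, the monocarboxylate carrier MCT2, measured 62.7, 60.2 and 54.0 CPM against 38.6, 30.5 and 40.9 CPM. Thus MCT1 and MCT2 differed in opposite directions. The calls held in 5 (Slc16a1, Slc28a1 and Maob), 4 (Bcat2, Cbs and Slc35f3), 3 (Slc38a3 and Acy1), 2 (Slc16a7) and 1 (Arg2) of the 12 fits.

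Of 17 iron handling genes 3 were called, all higher (17.6% against 0.532% of all genes), and 13 were positive with a median of 0.41. Tfrc, the transferrin receptor that takes iron into cells, measured 131, 39.4 and 56.2 CPM in ND + hIRI and 439.8, 237.2 and 228.8 CPM in HFD + hIRI kidneys, a log2 fold change of 2.0 (SE 0.40, adjusted p = 0.0450). In ND + hIRI the highest library was replicate 1, whose level was within the sham range of 97.7 to 169 CPM, and the other ND + hIRI libraries were below every sham kidney. Hfe, which pairs with that receptor in iron sensing, measured 21.4, 19.8 and 22.9 CPM against 47.7, 35.5 and 31.3 CPM, and Cp has been described. Alas2, the first enzyme of heme synthesis in red cell precursors, measured 9.20, 13.4 and 8.21 CPM against 23.1, 19.9 and 20.4 CPM, with a log2 fold change of 1.04 after hIRI and 1.22 in sham kidneys. Of 5 red cell precursor markers tested Tfrc and Alas2 were called (40% against 0.532% of all genes). The 5 summed to 61.9 to 188.4 CPM against 257.5 to 468.4 CPM, but most of that sum was Tfrc itself in each library. Of the 5 markers 3 were positive. Another of them, Slc4a1, the anion exchanger of red cells, measured 45.5, 7.11 and 4.56 CPM against 4.18, 1.49 and 6.55 CPM. The part of red cell precursors in the levels of Tfrc and Alas2 was not tested. The calls of Tfrc, Hfe and Alas2 each held in 2 of the 12 fits, and without ND + hIRI replicate 2 or HFD + hIRI replicate 2 the iron list had 0 calls.

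The called genes for cilia were all lower. Of 19 genes of motile cilia and the axoneme 4 were called (21.1% against 0.816% of all genes), and of 48 genes of the primary cilium and intraflagellar transport 2 were called (4.17%), while 42 of the 48 were negative with a median of -0.26. Kidney epithelia carry a single primary cilium per cell, a flow sensor without motility. Zmynd10, a cytoplasmic factor that assembles dynein arms, measured 17.1, 16.9 and 14.9 CPM in ND + hIRI and 2.84, 6.16 and 8.58 CPM in HFD + hIRI kidneys (log2 fold change -1.47, SE 0.29, adjusted p = 0.0446). Lrrc56, another dynein arm factor, measured 8.80, 6.78 and 5.76 CPM against 1.76, 2.83 and 3.92 CPM. Both groups were free of overlap in each of these genes and in the ones that follow. Efcab12 measured 2.74, 1.404 and 1.10 CPM against 0.207, 0.497 and 0.461 CPM. Dnah11, a heavy chain of axonemal dynein, had 46, 16 and 10 counts in ND + hIRI and 3, 3 and 3 counts in HFD + hIRI kidneys, so no fold is given. Dzank1 measured 4.72, 3.28 and 2.45 CPM against 0.878, 1.19 and 1.66 CPM. Bbs9, a subunit of the BBSome coat that moves membrane proteins in cilia, measured 15.2, 15.2 and 13.6 CPM against 4.49, 7.35 and 9.78 CPM. Zmynd10, Lrrc56, Dzank1 and Bbs9 were lowest in HFD + hIRI replicate 1 and highest in replicate 3, the reverse of the injury gene order. Each of the 6 calls held in 2 of the 12 fits, and with the library number run as a covariate 0 genes of both lists were called. Without HFD + hIRI replicate 1 the median of the primary cilium list was -0.13, and without both first hIRI replicates, an alternative added with the data known, it was -0.09. RFX factors bind an X-box in promoters of ciliary genes, and its core letters GTTGCC are shown in capitals, as the reverse complement, in the 300 bases of the Zmynd10 promoter (RefSeq, GRCm38.p6, chr9:107547054-107547353, plus strand).
Zmynd10: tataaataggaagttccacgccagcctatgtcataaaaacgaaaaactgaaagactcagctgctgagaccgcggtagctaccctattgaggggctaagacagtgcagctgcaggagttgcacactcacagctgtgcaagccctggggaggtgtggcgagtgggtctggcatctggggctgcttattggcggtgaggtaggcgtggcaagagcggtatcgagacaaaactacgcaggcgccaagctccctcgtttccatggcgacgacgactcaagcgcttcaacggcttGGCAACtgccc
The match begins at base 40 after the start. The letters were in 16 of 41 primary cilium promoters (39.0%) and 5 of 17 motile cilium promoters (29.4%), but also in 6 of 22 acute phase promoters (27.3%), in 12.6% of all promoters matched, and in 14.1% of those of genes called lower.

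**Figure D3:**
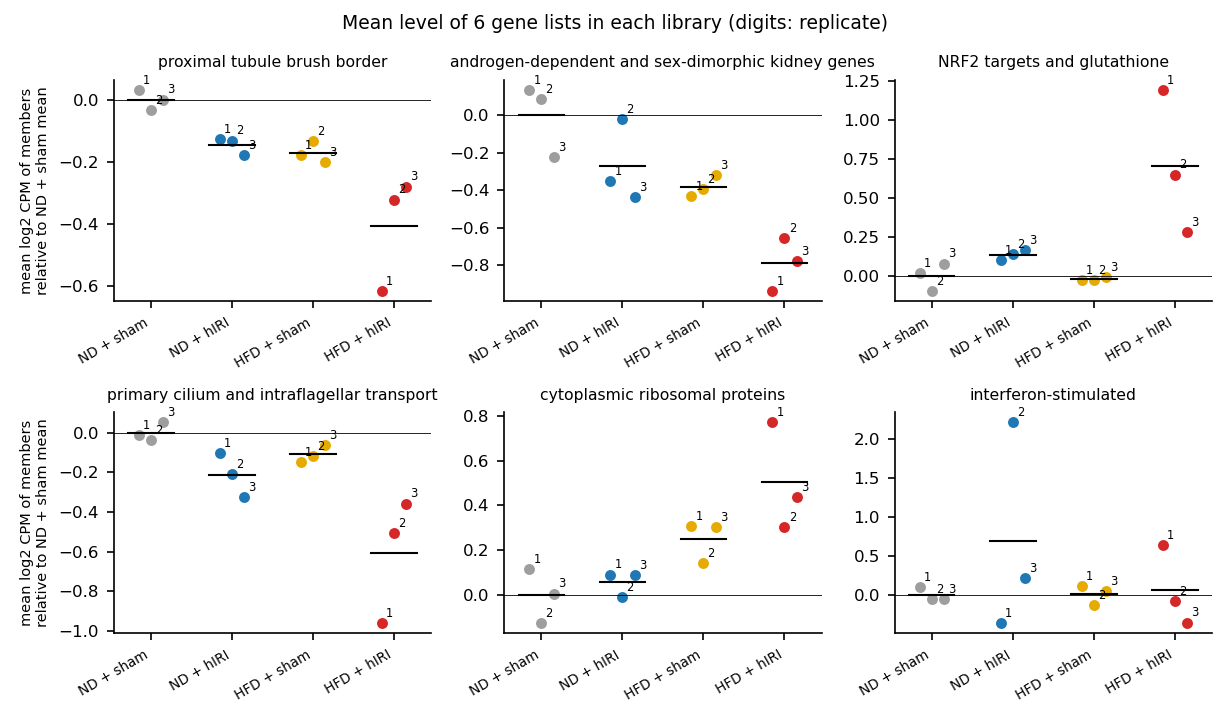
Mean log2 CPM of the members of 6 gene lists relative to the ND + sham mean (y axis) in each kidney of the 4 groups, with digits for replicates and bars for group means. HFD + hIRI replicate 1 is furthest from sham in 5 of the 6 lists, and ND + hIRI replicate 2 stands apart at 2.22 for the interferon-stimulated genes.

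Called genes for the ribosome and the respiratory chain were higher by small amounts. Of 82 cytoplasmic ribosomal proteins 81 were positive by log2 fold change, 74 were higher at an unadjusted p under 0.05 and 8 were called (9.76% against 0.532% of all genes), with a median of 0.47. The 8 calls became 0 without any 1 of the ND + hIRI libraries, 2 without HFD + hIRI replicate 1 or 2, 50 without HFD + hIRI replicate 3, 0 with the library number run as a covariate and 64 by DESeq2. Rpl39 measured 67.3, 65.3 and 64.9 CPM in ND + hIRI and 142, 90.5 and 105.1 CPM in HFD + hIRI kidneys, and Rps29 measured 223.2, 232.6 and 231.2 CPM against 438.1, 299.3 and 349.9 CPM. Rpl36a and Rpl11 differed by 0.70 and 0.59. Of the 12 fits without 1 library, the call held in 3 for Rpl39 and Rps29, in 2 for Rpl36a and in 1 for Rpl11. Ribosomal protein genes have many pseudogenes, so their counts are uncertain to that extent. Of 78 oxidative phosphorylation subunits 74 were positive, 51 were higher at an unadjusted p under 0.05 and 4 were called (5.13%), with a median of 0.28. They were Ndufc1 and Ndufa2 of complex I and Uqcrb and Uqcrh of complex III, with log2 fold changes of 0.47, 0.43, 0.46 and 0.48. Each of these calls held in 1 of the 12 fits. The list had 0 calls without any 1 hIRI library other than HFD + hIRI replicate 3, 16 higher and 1 lower without that library, 0 with the run covariate, and 28 higher and 1 lower by DESeq2. Both lists also had a positive median in sham kidneys, 0.24 and 0.07. Ribosome biogenesis (median 0.38, 37 of 38 positive) and the proteasome (0.21, 38 of 46 positive) had 0 called by the quasi-likelihood test, with 22 and 21 higher at an unadjusted p under 0.05, and 13 and 8 called by DESeq2. Of all 14091 genes 2105 were higher at that p, and DESeq2 called 1778. Dkc1, the pseudouridine synthase of the nucleolus, measured 18.5, 14.8 and 18.6 CPM against 37.4, 24.7 and 25.6 CPM (adjusted p = 0.0551), and Psma3, a proteasome subunit, measured 145.2, 141.1 and 134.8 CPM against 214.7, 187.2 and 163.4 CPM (adjusted p = 0.0811). The genes of these lists are short. The median length of the 75 genes called higher was 1698 bases against 2903 bases over all genes, while the genes called lower had a median of 3158 bases. In an alternative added with the data known, which removed the length trend of each library, the medians were 0.33 for the ribosomal proteins and 0.13 for oxidative phosphorylation, with 2 and 0 called. Over all genes that alternative called 60 higher and 105 lower. With library totals alone 78 of 82 and 66 of 78 stayed positive. The part of transcript length or RNA quality in these differences was not tested beyond that alternative.

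Of 32 interferon-stimulated genes 30 had a negative log2 fold change, with a median of -0.88, but 1 library set that direction. The mean of the list relative to ND + sham was -0.36, 2.22 and 0.22 in ND + hIRI replicates 1, 2 and 3 and 0.65, -0.08 and -0.35 in HFD + hIRI. Without ND + hIRI replicate 2 the median was 0.37, with 21 of 32 positive. The 1 called member (3.12% against 0.816% of all genes) was Gbp10, a guanylate-binding protein with near copies. It had 21, 72 and 65 counts in ND + hIRI and 2, 6 and 3 counts in HFD + hIRI kidneys.

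Several of the strongest calls fell outside the groups above. Fh1, fumarate hydratase of the citric acid cycle, measured 209.1, 293 and 307.6 CPM in ND + hIRI and 763.2, 715.5 and 503.3 CPM in HFD + hIRI kidneys (log2 fold change 1.29, SE 0.17, adjusted p = 0.0182), with 230, 215 and 208 CPM in ND + sham and 241, 241 and 247 CPM in HFD + sham. Hyi, a putative hydroxypyruvate isomerase, measured 33.6, 44.7 and 36.6 CPM against 20.9, 20.0 and 20.2 CPM (-0.91, SE 0.11, adjusted p = 0.0130). Hdac5, a class IIa histone deacetylase, measured 60.8, 55.0 and 61.0 CPM against 30.7, 39.6 and 32.5 CPM (-0.78, SE 0.11, adjusted p = 0.0236) and differed little by diet in sham kidneys, at -0.09. Tmprss9, a serine protease, measured 2.97, 4.21 and 3.89 CPM against 0.671, 0.689 and 0.231 CPM, a log2 fold change of -2.78 that was -2.65 in sham kidneys. Fh1 and Tmprss9 were lowest in replicate 3 among the HFD + hIRI kidneys. Kcng1, a modifier subunit of voltage-gated potassium channels, had 68, 35 and 22 counts in ND + hIRI and 0, 3 and 1 counts in HFD + hIRI kidneys. Map2k6, which activates p38 kinases, measured 19.8, 31.4 and 24.5 CPM against 8.26, 6.96 and 11.9 CPM, and Abcd4, a lysosomal protein needed for cobalamin release, measured 34.9, 39.5 and 26.9 CPM against 10.6, 16.4 and 16.8 CPM. Both were lower in every HFD + hIRI kidney. Among the higher genes Iqgap2, a scaffold protein, measured 136.6, 121.2 and 115.4 CPM against 178.3, 207.1 and 182.1 CPM, and Chst11, a chondroitin sulfotransferase, measured 102.6, 123.1 and 124.1 CPM against 270, 233.2 and 173.1 CPM. Each pair of groups listed here was free of overlap, as all called genes were. Hyi held in all 12 fits without 1 library, Fh1, Tmprss9 and Kcng1 in 11, Hdac5 in 10, Map2k6 in 7, Abcd4 and Iqgap2 in 6 and Chst11 in 5.

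Other large differences came from genes of RNA, DNA and the matrix around cells. Igf2bp1, which binds and stabilizes mRNAs, measured 4.92, 3.37 and 2.40 CPM in ND + hIRI and 0.207, 0.842 and 0.692 CPM in HFD + hIRI kidneys (log2 fold change -2.58, SE 0.41, adjusted p = 0.0300). Neil2, a DNA glycosylase of base excision repair, measured 3.09, 3.84 and 5.04 CPM against 0.413, 1.11 and 1.29 CPM (-2.06, SE 0.35, adjusted p = 0.0300). Hs6st2, which sulfates heparan chains, measured 5.55, 10.2 and 5.91 CPM against 1.65, 2.56 and 2.08 CPM. Chrdl1, an antagonist of bone morphogenetic proteins, and Podn, a matrix proteoglycan, were lower as well, at log2 fold changes of -1.87 and -1.76. Of these genes Chrdl1 and Igf2bp1 were also lower in HFD + sham at an unadjusted p under 0.05, with log2 fold changes of -1.25 and -1.26, as was Hs6st2 at -0.96. On the higher side, Tifa, an adaptor of NF-kB signaling, measured 6.42, 10.4 and 10.1 CPM against 35.5, 32.1 and 15.03 CPM (log2 fold change 1.62, SE 0.30, adjusted p = 0.0392). Armcx4 measured 12.3, 13.3 and 16.7 CPM against 77, 31.3 and 26.4 CPM, and its log2 fold change of 1.67 was 1.03 without HFD + hIRI replicate 1. Cldn5, the tight junction protein of endothelium, was the 1 called of 14 claudins (7.14% against 0.532% of all genes). It measured 7.29, 11.7 and 11.2 CPM against 21.4, 18.1 and 16.8 CPM, while the 20 endothelial markers had 0 called. Hsph1, a chaperone, was the 1 called of 19 heat shock genes (5.26% against 0.816% of all genes) and was lower, at -0.57. The calls held in 5 (Igf2bp1, Neil2 and Hs6st2), 4 (Chrdl1), 2 (Armcx4) and 1 (Podn, Tifa, Cldn5 and Hsph1) of the 12 fits without 1 library.

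**Figure D4:**
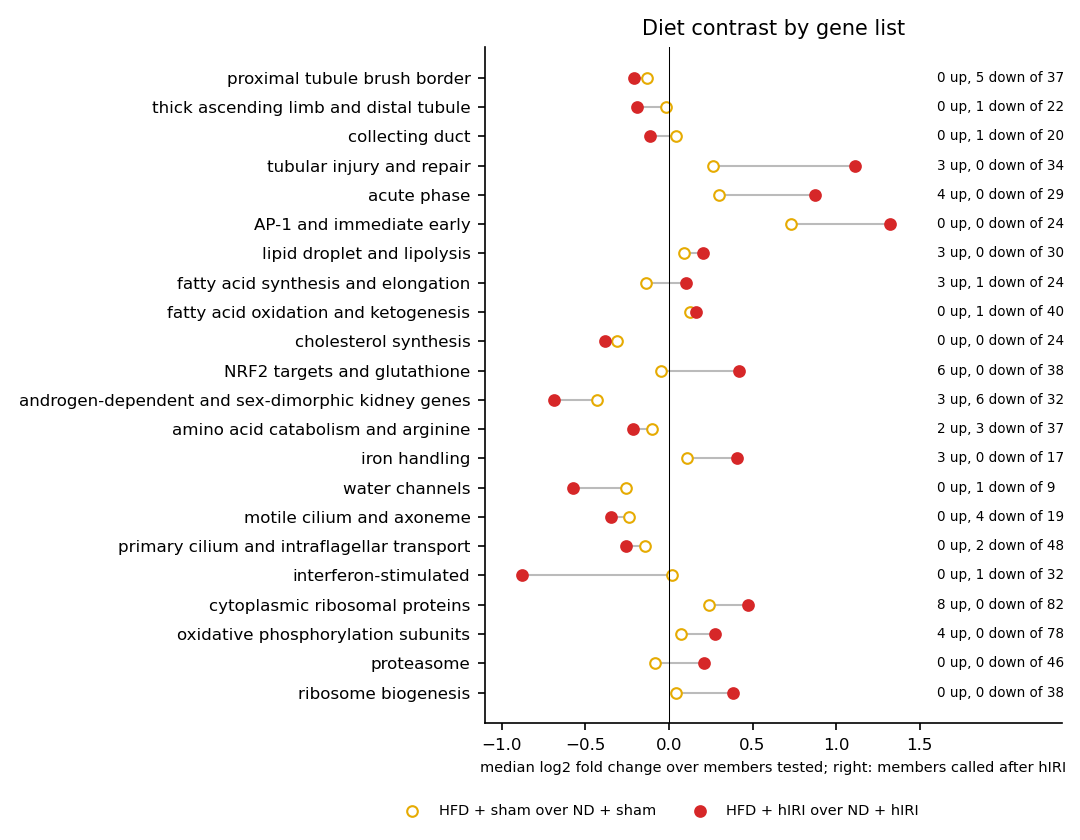
Median log2 fold change of HFD over ND after hIRI (red) and in sham kidneys (open) for 22 gene lists (y axis), with the members called after hIRI out of those tested at the right. Tubular injury, acute phase and AP-1 genes lie furthest to the right and interferon-stimulated genes furthest to the left.

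The same diet contrast in sham kidneys shares no library with that after hIRI, although both come from 1 model. It called 2 genes (0.0142%), Tmigd1 and Mas1, both lower, and both were also called lower after hIRI. Of the 75 genes called higher after hIRI 62 had a positive sign in sham kidneys, and of the 115 called lower 109 had a negative one, while over all genes the signs were equal in 60.5%. The sizes were smaller, with a median of 0.22 in sham kidneys against 0.84 after hIRI for the higher genes and of -0.36 against -1.02 for the lower genes. The genes were chosen by their contrast after hIRI, which by itself favors larger values there. These medians therefore cannot show that the diet difference was larger after hIRI. Among the called genes with a sham contrast about as large were Acsm3, Tmprss9, Tmigd1, Apoe, Cp, Gsto1, Akr1d1, Alas2 and Cadps2, a vesicle priming protein, as the plot of both contrasts shows. At the other end Fgb, Saa1, Plin2, Elovl2, Fh1, Mgst1 and Vdr differed after hIRI with sham contrasts between -0.63 and 0.16. Of the 190 genes, 119 had an unadjusted interaction p under 0.05, against 10.1% of all genes, and these genes were chosen by one of the contrasts the interaction contains. At an adjusted p under 0.05 only the interactions of Vdr and Fgb were called by the quasi-likelihood test. For the rest of the 190 genes the difference between both contrasts was not called.

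**Figure D5:**
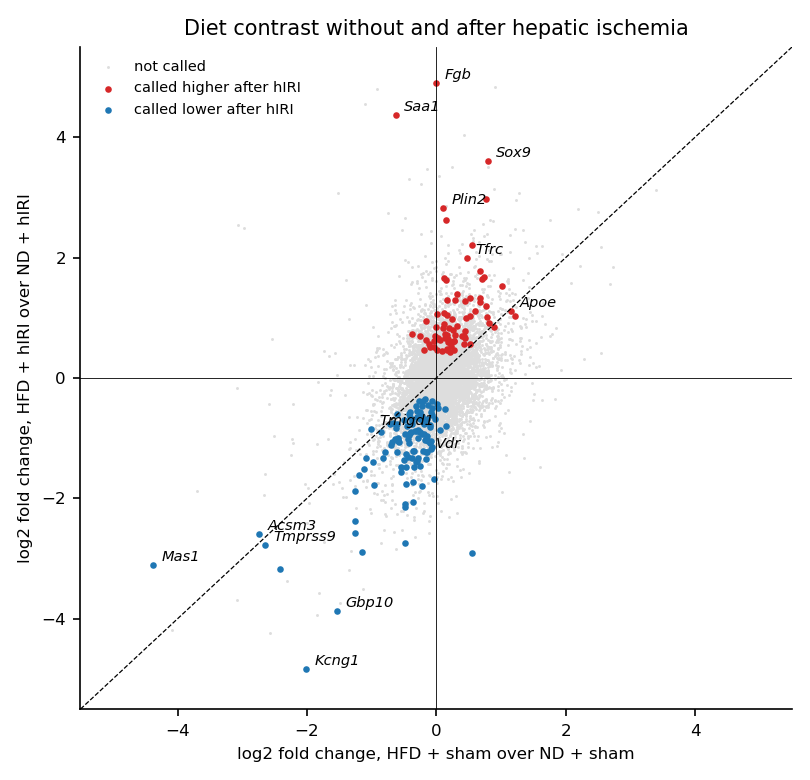
Log2 fold change of HFD over ND in sham kidneys (x axis) against that after hIRI (y axis) for each gene, with the 190 genes called after hIRI in color and equality as a dashed line. Acsm3, Tmprss9 and Apoe lie near the line, whereas Fgb, Saa1 and Plin2 lie far above it at sham contrasts close to 0.

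Markers of other cells and tissues were followed in the same libraries. The endothelium, macrophage, neutrophil, lymphocyte, fibroblast and adipocyte lists had 0 genes called by the quasi-likelihood test or by DESeq2, with 1 lymphocyte gene lower at an unadjusted p under 0.05 and 0 of the others. The 13 neutrophil genes summed to 18.2 to 76.9 CPM in ND + hIRI and 27.1 to 187.5 CPM in HFD + hIRI, with the highest value in HFD + hIRI replicate 1. Of these 12 were positive, with a median of 0.90 that turned to -0.30 without HFD + hIRI replicate 1. Of 13 adrenal genes 3 were tested, 0 were called and 2 were higher at an unadjusted p under 0.05 and by DESeq2. The 3 genes summed to 5.35 to 17.3 CPM against 29.2 to 70.2 CPM, and most of that sum was Akr1b7 in each library. Akr1b7, a steroid-linked aldose reductase, measured 2.85, 13.5 and 15.6 CPM against 64.9, 25.8 and 32.1 CPM (adjusted p = 0.0730), and Mc2r, the receptor for ACTH, measured 0.872, 0.749 and 0.864 CPM against 2.58, 1.53 and 2.54 CPM (adjusted p = 0.0774). The part of adrenal tissue in the genes called was not tested.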

How the data were processed

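Kidney RNA of 12 mice was sequenced, with 3 libraries in each of 4 groups given by the sample labels, and each library was taken as 1 mouse. The authors mapped the reads to mm10 with STAR 2.7.10a and deposited whole-number counts per gene from featureCounts (Subread 2.0.3), together with gene lengths. The sources used here do not give the annotation, the strand setting or any filter before deposit. That table as deposited also holds log2 CPM values, and comparisons by the authors as fold change scores, log2 fold changes and p-values, none of which were used.

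Counts were scaled by TMM and fitted in edgeR 4.0.16 (R 4.3.3) by the quasi-likelihood method with a robust prior, with all 12 libraries in 1 model and 1 mean per group. The filterByExpr filter removed 0 of 14091 genes. P-values were adjusted by Benjamini-Hochberg over all genes. With 3 libraries against 3, an exact permutation test of a single gene cannot go below p = 0.1, so none is given. Where a group had few counts, counts are given in place of folds. Library totals limit the precision of low genes.

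Members and 53 gene lists were chosen with earlier results of these data known. Named genes were the 15 called genes with the smallest p and the 15 with the largest change in each direction (mean log2 CPM of at least 1), up to 4 called members per list and direction, and the leading markers of each cell type. In lists with no call the member with the smallest p could be named. Other genes are said to be chosen after their values were seen. Alternatives were other scalings, filters, thresholds, DESeq2 1.42.0, limma 3.58.1, a replicate block, the library number run and leaving out each library. Some transcripts are not reported here.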

Additional observations from a re-analysis of the deposited data

Results flagged for a closer look

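The diet contrast after hIRI differed from that in sham kidneys by the interaction term for 2 genes. For Vdr the difference of the log2 fold changes was -1.09 (SE 0.14, adjusted p = 0.0461 by the edgeR quasi-likelihood test), with every HFD + hIRI kidney below every kidney of the other groups. For Fgb it was 4.90 (SE 0.61, adjusted p = 0.0461), with every HFD + hIRI kidney above every other kidney. Both values stood just under the threshold.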

How the results depend on the processing

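Called genes after hIRI numbered 190. The count was 119 with upper quartile scaling, 1778 with DESeq2, 1102 with the likelihood ratio test, 1068 with the exact test, 803 with limma voom and quality weights, 0 with only the 6 libraries compared, 91 with the library number run as a covariate, 0 with only libraries of the higher run (1515 at an unadjusted p under 0.05), 2 at an adjusted p under 0.01 and 92 with a fold of at least 2. Without both first hIRI replicates, added as an alternative with the data known, it was 91. Leaving out 1 library gave 4 to 2559 calls. In sham kidneys the count of 2 became 0 with at least 10 counts in every library, 132 with DESeq2, 45 with the likelihood ratio test, 44 with the exact test, 0 with limma voom, 316 with quality weights, 226 with only the 6 libraries compared, 0 with the run covariate, 64 without both first hIRI replicates, 0 at an adjusted p under 0.01 and 0 to 10 without 1 library. The interaction count of 2 became 37 with DESeq2, 8 with the likelihood ratio test, 0 with limma voom, 4 with quality weights, 0 with the run covariate, 0 with the gene length trend removed, 7 without both first hIRI replicates, 0 at an adjusted p under 0.01 and 0 to 2 without 1 library. The cause of these shifts was not tested. The other scalings and filters kept each count within 1.5 times. None of the 190 called genes changed direction under the 29 alternatives. The hIRI groups did not overlap for any of these genes, so leaving out a library could hardly have reversed one.

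Same-numbered hIRI libraries had correlations of their deviations of -0.417, -0.0916 and -0.297, and those with unlike numbers ran from -0.274 to 0.471. With 3 libraries per group the deviations are tied to each other, so these values cannot show whether the numbers are a pairing. The numbers were not taken as pairing. With the replicate block 147 genes were called after hIRI, 105 of them among the 190, and 0 in sham kidneys and for the interaction.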
